A study of Mus musculus with 9 samples.

Results

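The odorant receptor (OR) genes numbered Olfr763 to Olfr825 form a class II cluster on mouse chromosome 10, the chromosome that also carries the trace amine-associated receptor (Taar) genes. Genes were taken as members by their symbol alone, every Olfr number from Olfr763 to Olfr825 being included, which gave 54 genes of the 24419 symbols in the count table and of 1125 OR genes. The rule itself uses no measured value. Expression was measured by RNA sequencing of polyA-selected RNA from the whole main olfactory epithelium (MOE) of C57BL/6 mice at postnatal day 14. The mice carried a deletion of TAAR enhancer 2, a regulatory element inside the Taar cluster, on no allele (wild type, WT), on 1 allele (het) or on both (homo), with 3 libraries per genotype. The labels give the strain as C57BL/6, while the study's methods describe its mouse lines in general as being on a mixed background. The deletion line was made by CRISPR-Cas9 editing and is a single line. The element was removed from the germ line and therefore from every cell. Animals of both sexes were used, and the labels do not give the sex of a library. Per the study's methods the groups were littermates, but the labels do not say which animals shared a litter.

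Each olfactory sensory neuron (OSN) expresses a single allele of a single OR gene, chosen from a repertoire spread over many chromosomes, and the receptor is a G protein-coupled receptor that signals through Golf, adenylyl cyclase and a cyclic nucleotide-gated channel. OR genes are held in heterochromatin, and the chosen gene is contacted by enhancers that bind Lhx2, Ldb1 and Ebf factors, some of them on other chromosomes. In whole tissue the read count of an OR gene therefore follows both how many OSNs chose it and how much RNA each of those cells holds, and these cannot be told apart here. The question put to the cluster was whether loss of a Taar enhancer on the same chromosome went with any difference in these OR genes.

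In the GENCODE M21 annotation of GRCm38 the 54 members lay between positions 129010791 and 130166766 of chromosome 10, a span of 1156 kb. The 14 olfactory Taar genes, Taar2 to Taar9, lay 104.9 Mb away, between 23938572 and 24109534. All 54 were annotated as protein-coding, 26 on the plus strand and 28 on the minus strand, and the median gap between neighbouring members was 16370 bases. The open reading frame of each lay in a single exon of 924 to 984 bases. For 52 members at least 1 transcript had more than 1 exon, and the median distance from the farthest transcript start to the start codon was 2975.5 bases. The first member was Olfr763 (chr10:129010791-129013313, plus strand) and the last was Olfr825 (chr10:130159732-130166766, minus strand). Olfr826, the gene numbered just past the limit, had between 2.54 and 4.66 CPM (read counts scaled to a common library size) over the 9 libraries, beside 1.37 to 3.79 for Olfr825 just inside it and 0.515 to 1.04 for Olfr763 at the other limit. Of the 63 RefSeq entries numbered in this range, 54 had a curated transcript, and all 54 were in the count table. The entries without a curated transcript were absent from it.

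The members shared a sequence feature that their numbering did not use. OR proteins carry a conserved signature of methionine, alanine, tyrosine, aspartate and arginine at the inner end of the third transmembrane segment, next to the site that contacts the G protein. In 48 of the 54 members the codon for the second residue of this signature was a serine codon, and in the other 6 (Olfr763, Olfr796, Olfr819, Olfr823, Olfr824 and Olfr825) it was an alanine codon. Of the 1056 other OR genes with a coding sequence in the annotation, 11.1% had a serine codon there and 73.8% an alanine codon. The shares were 4.7% and 89.7% for the chromosome 9 cluster (Olfr835 to Olfr986), and 13% and 53% for class I OR genes. These shares are of all coding sequences. The signature was not found in 13.5% of the other OR genes, 5.6% of the chromosome 9 cluster and 31.3% of class I genes. The stretches below are 30 bases of coding sequence read from the GENCODE M21 transcripts, 5′ to 3′ on the coding strand, with the second codon of the signature in capitals, and they show the change between the member with the highest level and 5 of the alanine members.
Olfr801 (chr10:129666989-129673865, minus strand, coding bases 346 to 375): atgTCCtatgaccgatatgtagccatctgc
Olfr763 (chr10:129010791-129013313, plus strand, coding bases 352 to 381): atgGCCtatgaccggtatgctgccatctgc
Olfr796 (chr10:129605492-129612570, minus strand, coding bases 355 to 384): atgGCCtatgaccgttatgcagccatctgt
Olfr819 (chr10:129963011-129967266, minus strand, coding bases 370 to 399): atgGCTtatgatcgctttgtggctatttgt
Olfr824 (chr10:130123470-130130000, minus strand, coding bases 361 to 390): atgGCTtatgaccgcttctcagccatttgc
Olfr825 (chr10:130159732-130166766, minus strand, coding bases 361 to 390): atgGCTtatgaccgtttcattgccatctgc

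In the whole coding sequences the serine members also stood together, while the alanine members did not form a second group. Among the 1128 pairs of serine members identity ranged from 62.0% to 99.2% with a median of 66.7%. Among the 288 pairs of a serine and an alanine member it ranged from 50.8% to 57.5% with a median of 54.4%, so the ranges did not overlap. The 15 pairs of alanine members ranged from 53.7% to 98.7%, with a median of 56.2%, near that of the mixed pairs. The highest value there was the pair Olfr823 and Olfr824. Of the 6 alanine members, Olfr763 stood at the start of the cluster, Olfr819, Olfr823, Olfr824 and Olfr825 stood near the far end, and Olfr796 lay in the middle.

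**Figure D1:**
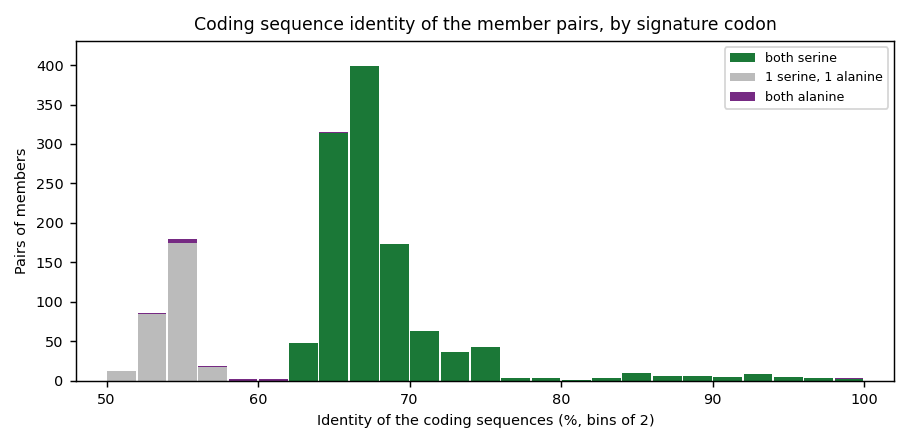
Histogram of the identity of coding sequences (x axis, %, bins of 2) for the 1431 pairs of members (y axis, number of pairs), coloured by the signature codon of the pair. Mixed pairs lie between 50.8% and 57.5%, below the 62.0% at which the pairs of serine members begin, and a tail of 22 pairs reaches 90% or more.

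Close copies matter for the counts, because a read that fits more than 1 gene can be dropped or given to the wrong one. Of the 1431 pairs, 22 were identical at 90% of positions or more. The closest were Olfr772 and Olfr773 at 99.2% with 7 differences, Olfr823 and Olfr824 at 98.7% with 12 differences, and Olfr765 and Olfr767 at 98.2% with 17 differences. Of all 50-base windows of the coding sequence, the share found on neither strand of any other annotated mouse gene's transcripts had a median of 82.6%. It was lowest at 14% for Olfr782, at 20.9% for each of Olfr772 and Olfr773, at 24.0% for Olfr819 and at 32.4% for each of Olfr823 and Olfr824, and 12 members were unique throughout. The following 60-base stretches of the closest pairs are shown with the bases that differ in capitals.
Olfr772 (coding bases 758 to 817, chr10:129172573-129177921, minus strand): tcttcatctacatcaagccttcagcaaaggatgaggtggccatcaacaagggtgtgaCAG
Olfr773 (coding bases 758 to 817, chr10:129186484-129187419, minus strand): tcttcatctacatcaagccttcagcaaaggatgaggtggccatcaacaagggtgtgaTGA
Olfr765 (coding bases 399 to 458, chr10:129044817-129049998, minus strand): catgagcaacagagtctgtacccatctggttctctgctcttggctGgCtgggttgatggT
Olfr767 (coding bases 399 to 458, chr10:129074825-129082910, minus strand): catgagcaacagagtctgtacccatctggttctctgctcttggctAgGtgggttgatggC

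Library totals ranged from 20527992 to 32262005 counts, and the members summed to between 3283 and 6721 counts per library. Taar6, a gene of the Taar cluster, lay at 6.27 to 6.62 CPM in the 3 WT libraries, at 4.42 to 5.23 in the 3 het and at 0.610 to 0.743 in the 3 homo libraries, which did not go against the labels. The libraries of replicate number 1 stood apart from numbers 2 and 3 in all 3 genotypes and had the lowest totals of their groups, 20527992 to 22292647 counts against 24905135 to 32262005. Values within these sets are therefore given below. All 10 mature OSN markers, Omp and Cnga2 among them, were present in every library. Of the 5 blood and immune markers, the globin genes Hbb-bs and Hba-a1 were listed at 0.

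All 54 members had at least 1 read, and 53 reached the 10 counts over the 9 libraries that were needed for a test. Totals of the tested members ran from 126 to 3231 counts. Levels were compared between genes as CPM per kb of coding sequence. The highest WT level was that of Olfr801 (chr10:129666989-129673865, minus strand), with 12.2, 15.4 and 9.88 CPM in the WT libraries, or 13.1 ± 2.89 CPM per kb (SD, n = 3, as for the levels that follow). Olfr820 followed with 8.71 ± 2.98 CPM per kb, Olfr812 with 7.96 ± 1.10 and Olfr810 with 7.72 ± 1.51. Olfr788 had 7.08 ± 0.606, Olfr777 6.89 ± 0.182, Olfr808 6.75 ± 2.18 and Olfr791 6.67 ± 0.119. Below Olfr801, each of these neighbours in the order differed from the next by less than the larger of their SDs. The 8 genes together held 33.1% of the members' CPM in WT, and Olfr801 alone held 6.79%.

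The lowest tested members were Olfr785 at 0.695 ± 0.0911 CPM per kb, Olfr814 at 0.674 ± 0.310, Olfr823 at 0.656 ± 0.241 and Olfr803 at 0.563 ± 0.303. These 4 did not differ from each other beyond their SDs. Olfr801 was 23.2-fold above Olfr803. The median of the members was 2.97 CPM per kb, with quartiles of 1.71 and 5.48. For the 1056 other OR genes with a length, the median was 2.38 with quartiles of 1.26 and 4.09, for the chromosome 9 cluster it was 1.85, and for class I genes 2.61. The order depends on the length used, since the counted exons are not stated. With the union of annotated exons in place of the coding sequence, only 3 of the 8 genes (Olfr801, Olfr812 and Olfr791) were still among the highest 8, and Olfr777 moved from rank 6 to rank 23.

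**Figure D2:**
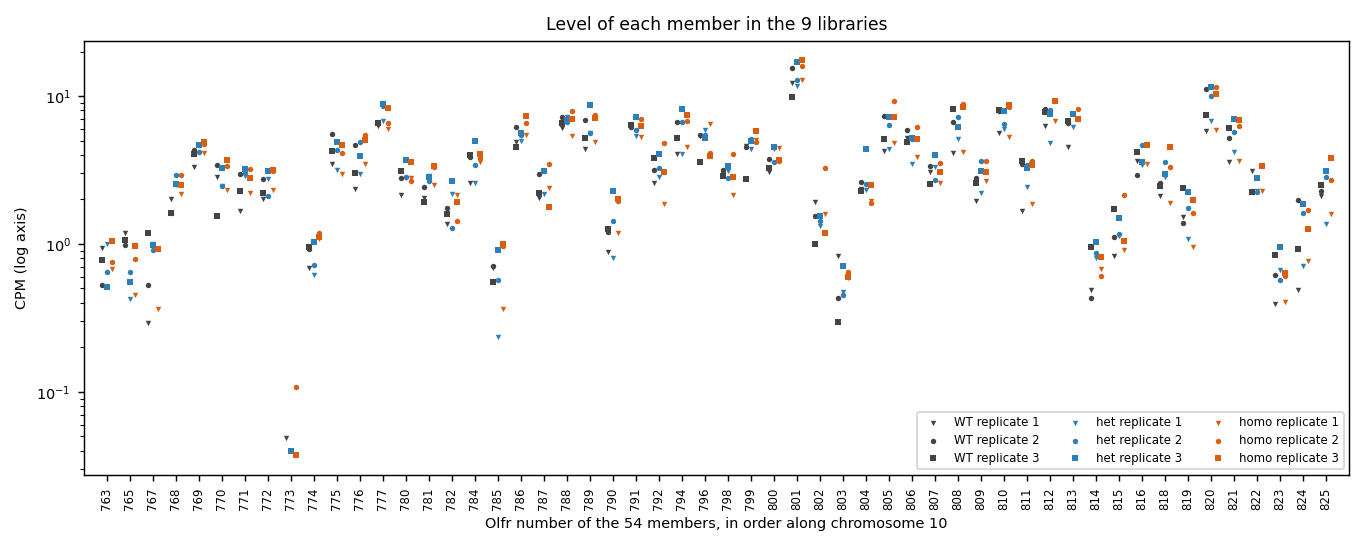
Level of each of the 54 members (x axis, in order along chromosome 10) in each of the 9 libraries (y axis, CPM on a log axis, not divided by length). Colour gives the genotype and shape the replicate number, and libraries with 0 counts, which occur only for Olfr773, are not drawn. Colours mix within nearly every gene, while the triangles of replicate number 1 often lie lowest.

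Olfr773 was the only member that was not tested. Its raw counts were 1, 0 and 0 for WT, 0, 0 and 1 for het and 0, 3 and 1 for homo, 6 over all libraries. Its neighbour Olfr772, with the same share of unique windows, had 41, 89 and 60 counts in WT and 606 in all. The annotation gives Olfr772 a union of exons of 2965 bases and Olfr773 one of 936 bases, which holds no untranslated region. Whether reads moved between this pair in counting was not tested.

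Levels along the cluster were read in bins of 9 neighbouring members, per kb of coding sequence only. The median WT level was 1.87 CPM per kb over the tested members of the first bin (Olfr763 to Olfr773) and 2.86 in the next. It was 5.53 in the third bin (Olfr786 to Olfr796), then 3.61, 3.20 and 2.51 in the last. The third bin was highest, while Olfr801, the highest member, lay in the bin after it (Olfr798 to Olfr806). The median was 2.80 in the first 27 members and 3.20 in the last 27. The Spearman correlation between the order on the chromosome and the WT level was 0.16 over the 54 genes, which share the same libraries. Members on the plus strand had a median of 3.59 CPM per kb and those on the minus strand 2.50. The median was 3.21 for the serine members and 1.52 for the alanine members, among which Olfr796 was highest at 5.16 ± 1.14. Members with more unique windows tended to have higher WT levels, with a Spearman correlation of 0.43 over the 54 genes. The part of shared sequence in these levels was not tested. The spread between WT libraries of 1 tested member, as a coefficient of variation, had a median of 19.6% and ran from 1.79% to 68.9%. Between libraries the profile over the members was stable, and the Pearson correlation of log2 CPM over the 53 genes lay between 0.88 and 0.96 for every pair of libraries, across genotypes as within them.

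In homo against WT, 0 of 53 members passed the threshold (adjusted p under 0.05 and fold change over 1.5 by edgeR's quasi-likelihood test with Benjamini-Hochberg adjustment over all genes). Over all 19775 genes tested the share was 0.0202%, from 4 genes, each of them a Taar gene. Most members leaned upward. The log2 fold change was above 0 for 46 of the 53 and below 0 for 7, against 51.2% and 48.7% of all genes, and its median was 0.19 against 0.00 for all genes. The count above 0 was 33 without homo replicate 2 and 35 without WT replicate 1. An unadjusted p under 0.05 was found for 2 members, or 3.77%, near the 3.45% of all genes and the 3.38% of the other OR genes. For the chromosome 9 cluster it was found in 6.73%. Both members were higher in homo, where the share over all genes was 0.779%, and 0 were lower, beside 2.67%. The shares of the OR genes pool both directions. DESeq2 and limma-voom also called 0 members, and the adjusted p of every member by edgeR was 1. The standard error (SE) of a member's log2 fold change had a median of 0.27 and ran from 0.17 to 0.54. These SEs come from a fit with genotype alone, in which differences between replicate numbers count as spread. Differences of the size of the median were not detectable for single genes in that fit. With a term for number 1 in the fit, 43 members were above 0 with a median of 0.18, and no member was called.

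Olfr768 (chr10:129090222-129099375, minus strand) had the smallest unadjusted p. The WT libraries had 2.01, 1.61 and 1.62 CPM, the het libraries 2.51, 2.91 and 2.53, and the homo libraries 2.18, 2.94 and 2.49. Every homo and het library was above every WT library. The log2 fold change of homo against WT was 0.54 (SE 0.21, edgeR unadjusted p = 0.0277, adjusted p = 1), and the adjusted p was between 0.618 and 1 over the alternatives. Olfr781 (chr10:129328854-129333844, plus strand) had 2.06, 2.44 and 1.92 CPM in WT. The het libraries had 2.89, 2.68 and 2.85 CPM and the homo libraries 2.49, 3.30 and 3.38. Again no WT library reached the others, with a log2 fold change of 0.51 for homo (SE 0.20, edgeR unadjusted p = 0.0295, adjusted p = 1). Neither gene passed the test.

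Olfr765 was the member with the lowest fold change. Its WT libraries had 1.18, 0.990 and 1.07 CPM, its het libraries 0.426, 0.642 and 0.554, and its homo libraries 0.453, 0.789 and 0.966, so that every WT library lay above the other 6. The log2 fold change was −0.54 in homo (SE 0.34, edgeR unadjusted p = 0.15) and −0.98 in het (SE 0.35, edgeR unadjusted p = 0.0203), with edgeR adjusted p of 1 in both. Leaving out 1 library at a time put the homo value between −0.77 and −0.29. Raw counts were low, from 9 to 32 per library. Added to its close copy Olfr767, the pair had 1.74 ± 0.436 CPM in WT (SD, n = 3), 1.5 ± 0.0737 in het and 1.48 ± 0.580 in homo, and the groups overlapped. The member with the largest positive value, Olfr790, had a log2 fold change of 0.61 with an SE of 0.39.

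The other members of lowest p in homo against WT were Olfr799 with a log2 fold change of 0.41 (SE 0.22, edgeR unadjusted p = 0.0918), Olfr786 with 0.31 (SE 0.18) and Olfr813 with 0.31 (SE 0.19). Counted without a model, 5 members had every homo library above every WT library (Olfr768, Olfr774, Olfr781, Olfr799 and Olfr813) and 1 had every homo library below (Olfr765). These shares were 9.43% and 1.89%, beside 2.97% and 2.71% of all genes and 9.37% and 0.290% of the other OR genes. The share above was near that of the other OR genes.

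In het against WT, 0 of 53 members were called by edgeR, DESeq2 or limma-voom, and the share over all genes by edgeR was 0%. Unadjusted p under 0.05 occurred in 2 members, or 3.77%, against 1.28% of all genes and 1.35% of the other OR genes. Olfr768 was higher in het with a log2 fold change of 0.61 (SE 0.21, edgeR unadjusted p = 0.0169, adjusted p = 1), beside 0.415% of all genes in that direction, and Olfr765 was lower, beside 0.865%. The median log2 fold change was 0.16. It was above 0 for 40 members and below 0 for 13, against 47.7% and 52.3% of all genes. Every het library was above every WT library in 4 members (Olfr768, Olfr777, Olfr781 and Olfr818) and below in 1 (Olfr765). These shares were 7.55% and 1.89%, beside 2.01% and 1.95% of all genes and 6.28% and 1.45% of the other OR genes. Both shares were near those of the other OR genes. Olfr777 had 6.23, 6.52 and 6.52 CPM in WT and 6.81, 8.57 and 8.79 in het, which did not overlap, and then 6.03, 6.60 and 8.36 in homo, which did (log2 fold change of het 0.33, SE 0.17, edgeR adjusted p = 1). Both comparisons share the WT libraries, so the upward lean in both is not a pair of independent observations.

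In homo against het, 0 of 53 members were called by edgeR, DESeq2 or limma-voom, and 0.00506% of all genes, or 1 gene, were by edgeR. With the replicate number as a block 0 members and 3 genes were called. An unadjusted p under 0.05 was found for 0 members and for 0.662% of all genes. The median log2 fold change was 0.06, with 29 members above 0 and 24 below, beside 51.4% and 48.6% of all genes. The median turned to −0.053 without het replicate 1 and to −0.040 without homo replicate 2. The lowest unadjusted p was that of Olfr804, with a log2 fold change of −0.54 (SE 0.27, edgeR unadjusted p = 0.0772), where het replicate 3 at 4.36 CPM stood above the other 8 libraries at 1.9 to 2.63. Olfr774 had 0.615, 0.718 and 1.03 CPM in het and 1.09, 1.18 and 1.12 in homo (log2 fold change 0.51, SE 0.30), and was the only member without overlap in this comparison, 1 higher and 0 lower, beside 2.35% and 1.81% of all genes. For Olfr786 the log2 fold change was 0.27 (SE 0.18) and for Olfr812 it was 0.31 (SE 0.23). Testing all 3 genotypes at once with edgeR called 0 of 53 members, beside 0.00506% of all genes, as did DESeq2 and limma-voom, and 1 member, Olfr768, had an unadjusted p under 0.05, beside 1.39% of all genes.

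**Figure D3:**
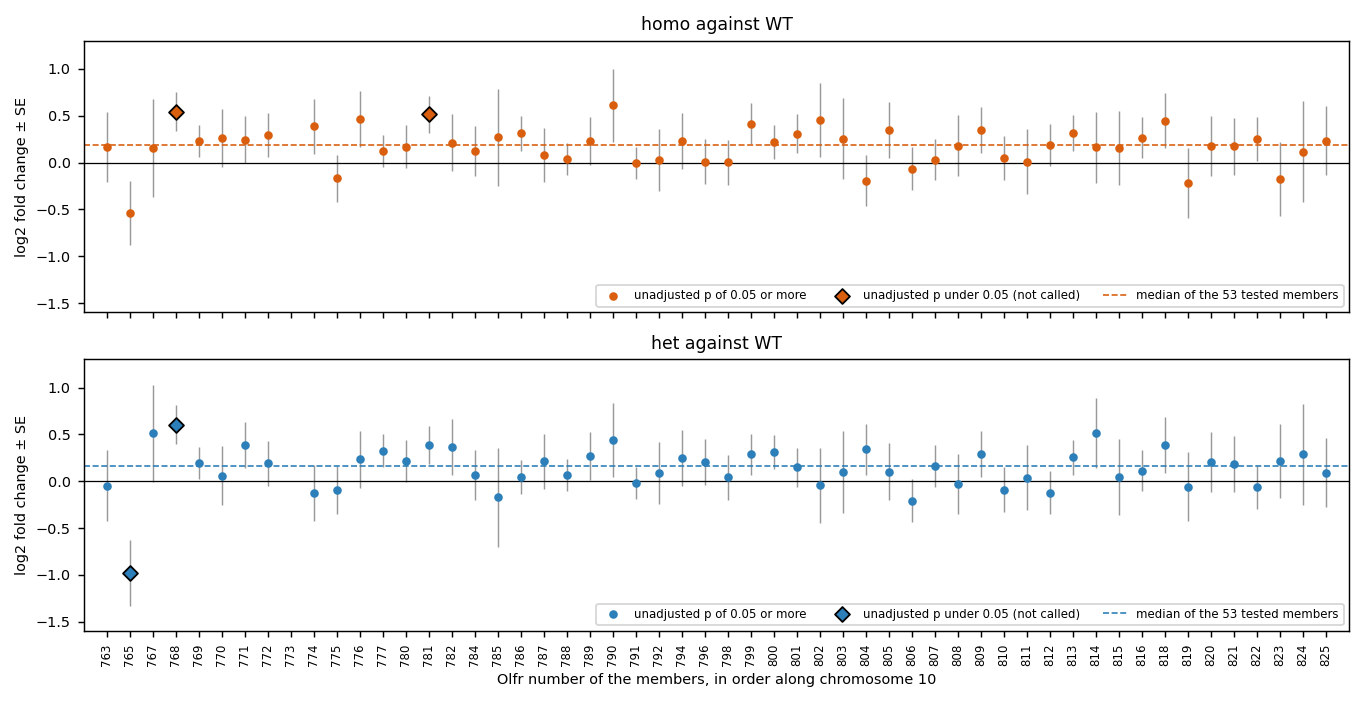
Log2 fold change of each tested member (points, with bars of ± 1 SE) in homo against WT and in het against WT, in order along chromosome 10. Diamonds mark an unadjusted p under 0.05, 2 genes in each panel and none called, and the dashed medians lie at 0.19 and 0.16.

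Added over the cluster, the WT libraries held 161, 208 and 183 CPM, the het libraries 172, 205 and 231 CPM, and the homo libraries 167, 234 and 227 CPM. The group means were 184 ± 23.4, 202 ± 29.6 and 209 ± 36.6 CPM (SD, n = 3), and the groups overlapped. Homo was at 114% of WT and het at 110%. Within replicate number 1 homo was at 104% and het at 107% of WT, and within numbers 2 and 3 at 118% and 111%. The summed level of the other OR genes was at 114% of WT in homo and 109% in het, and the chromosome 9 cluster was at 119% and 112%. As a share of all OR counts the members held 5.20% ± 0.303 for WT, 5.24% ± 0.379 for het and 5.17% ± 0.368 for homo (SD, n = 3).

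**Figure D4:**
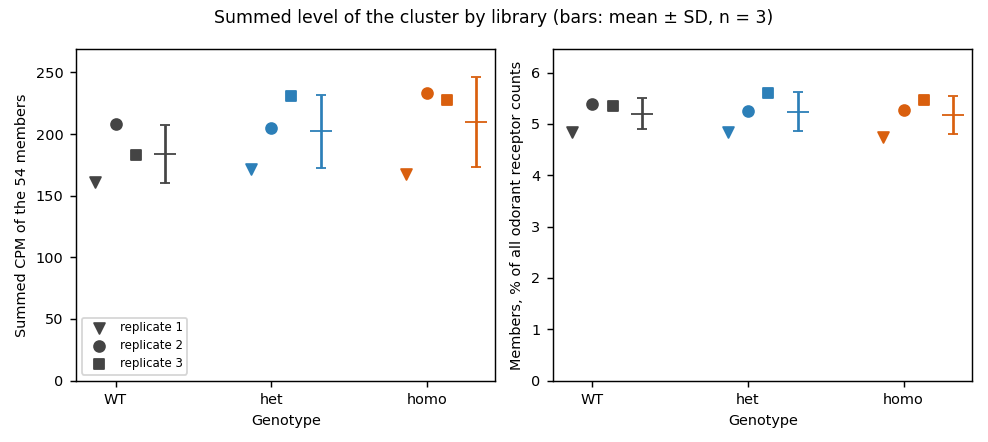
Summed CPM of the 54 members (left) and their share of all OR counts (right, %) in each library by genotype, with the mean ± SD of 3 libraries beside the points. The genotypes overlap in both panels, and replicate number 1 (triangles) is the lowest library of each genotype.

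Fold changes of the members were thus set against the other OR genes. When the summed counts of the OR genes outside the cluster were used as library size, the median log2 fold change of homo against WT was −0.01 and 26 of 53 members were above 0. On the usual scaling 82.2% of the 1035 other OR genes tested were above 0 with a median of 0.21, as were 83.7% of the chromosome 9 cluster with a median of 0.27 and 73.9% of class I genes with a median of 0.14. For het the other OR genes had a median of 0.12, the chromosome 9 cluster 0.18 and class I genes −0.05, beside 0.16 for the members. Within the cluster the medians of homo against WT were 0.22 in the first 27 genes along the chromosome, which lie nearer to the Taar genes, and 0.18 in the last 27. They were 0.22 on the plus strand and 0.16 on the minus strand. For serine members the median was 0.22 and for the 6 alanine members 0.06. These are descriptions, and differences between the subsets were not tested.

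Markers of the cell types in the MOE were read beside these values. None of the 10 mature OSN markers was called in homo against WT, and all 10 had a log2 fold change above 0, with a median of 0.08 and a summed level of 7123 to 7435 CPM in WT and 7338 to 8114 in homo. All 4 horizontal basal cell markers were below 0 (median −0.45, summed level 94.7 to 172 CPM in WT and 79.8 to 129 in homo), as were all 4 secretory gland markers (median −0.58, 3373 to 9638 CPM in WT and 3037 to 5688 in homo), and 0 of them were called. The 3 blood and immune markers tested had a median of −0.99 and 0 calls, with a summed level of 100 to 474 CPM in WT and 98.2 to 167 in homo. The sustentacular markers had a median of 0.21, the immature OSN markers 0.13, the globose basal and progenitor markers 0.13, the microvillous markers −0.01 and the ciliated markers −0.10, with 0 calls. The part of these cell types in the OR values was not tested.

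The genes that act with OR genes were read from a list of 26. It holds Lhx2, Ldb1, Emx2 and the Ebf factors of OR transcription, the chromatin genes Lbr, Kdm1a, Cbx5 and Trim28, Atf5 and Eif2ak3 of the feedback that keeps the choice, the transport proteins Rtp1, Rtp2 and Reep1, and the transduction genes from Gnal to Ano2 with Omp. In homo against WT 0 of 26 were called, 23 had a log2 fold change above 0, and all lay between −0.05 and 0.19, with a median of 0.07. In het against WT 0 of 26 were called, between −0.11 and 0.19. Rtp1, which carries OR proteins to the cell surface, had a log2 fold change of 0.09 in homo, and Lhx2 had 0.05.

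The clearest differences in the cluster followed the replicate number and not the genotype. With genotype in the model, 10 of 53 members were called between the libraries of number 1 and those of numbers 2 and 3, all lower in number 1. Of all genes 8.95% were called, 3.52% lower and 5.42% higher, and of the other 1035 OR genes 128 were called lower and 12 higher. Of the members 47 were below 0 and 6 above, beside 52.7% and 47.3% of all genes, with a median log2 fold change of −0.33, against −0.21 for the other OR genes, −0.26 for the chromosome 9 cluster, −0.19 for class I genes and −0.03 for all genes. An unadjusted p under 0.05 was found for 22 members, or 41.5%, beside 42.6% of all genes and 29.4% of the other OR genes. The share of all genes pools both directions, 20.9% lower and 21.7% higher, while most members lay below 0. The labels do not say what the number stands for. The split by number was set because earlier results of these same libraries showed number 1 apart. Its p-values therefore describe a known split in single genes and are not an independent test of it.

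Olfr820 (chr10:130012621-130021286, plus strand) was one of the 10. It had 5.79, 6.76 and 5.94 CPM in the number 1 libraries of WT, het and homo, and between 7.44 and 11.5 CPM in the other 6, with no overlap (log2 fold change −0.74, SE 0.15, edgeR adjusted p = 0.00575). Olfr821, its neighbour, had 3.58, 4.21 and 3.63 CPM in number 1 and 5.20 to 6.97 in the others (log2 fold change −0.70, SE 0.13, edgeR adjusted p = 0.00448). Olfr811 had 1.67, 2.41 and 1.86 CPM against 3.25 to 3.65 (log2 fold change −0.82, SE 0.16, edgeR adjusted p = 0.00533). Olfr824 (chr10:130123470-130130000, minus strand) had the lowest value, with 0.490, 0.710 and 0.771 CPM against 0.921 to 1.98 (log2 fold change −1.24, SE 0.31, edgeR adjusted p = 0.0156), but from 10, 15 and 17 raw counts in number 1 and with few unique windows.

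Olfr794 and Olfr808 were called with log2 fold changes of −0.68 and −0.75, and Olfr776, Olfr790, Olfr805 and Olfr825 with values from −0.62 to −0.80. Olfr812 had an edgeR adjusted p of 0.00745 with a log2 fold change of −0.50, under the fold limit. In 13 members every number 1 library was below all 6 others, or 24.5% of those tested, beside 16.2% of all genes and 15.9% of the other OR genes, and in 0 members was every one above, beside 17.8% of all genes. Olfr796, an alanine member, had the highest value, 0.36 (SE 0.16, edgeR adjusted p = 0.131), and was not called.

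The call count depended on the scaling and on single libraries. Relative to the other OR genes 2 members remained called, Olfr811 and Olfr824, and the median was −0.13. Without homo replicate 1 the calls were 3 (Olfr794, Olfr811 and Olfr821), and without het replicate 1 they were 5 (Olfr808, Olfr810, Olfr811, Olfr820 and Olfr821).

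Along the chromosome, 3 of the 10 lay among the first 27 members and 7 among the last 27. The medians in these sets were −0.30 and −0.45, and in the last 9 members, Olfr816 to Olfr825, the median was −0.68 with 4 calls, against −0.21 and 0 calls in the first 9. The Spearman correlation of order with the log2 fold change was −0.31 over the 53 members and −0.15 over the serine members alone. These members share the same 9 libraries. The same correlation was −0.12 for homo against WT and −0.06 for het against WT.

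**Figure D5:**
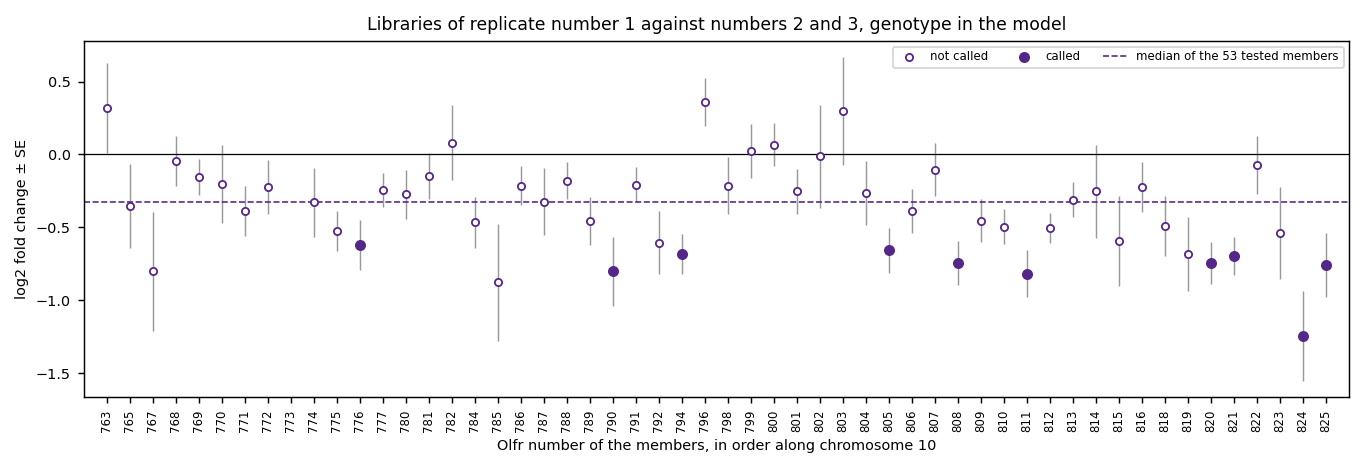
Log2 fold change (y axis, ± 1 SE) of each tested member between the libraries of replicate number 1 and those of numbers 2 and 3, with genotype in the model, in order along chromosome 10. The 10 filled points passed the threshold, 7 of them in the last 27 members, and the dashed median lies at −0.33.

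Genes of other kinds moved with the replicate number as well. Of the progenitor markers Neurog1 and Neurod1, proneural factors of the OSN lineage, were called higher in number 1 with log2 fold changes of 1.66 and 0.68. The immature OSN markers Gap43 and Gng8 were higher by 0.59 and 0.62, and the mature OSN gene Gng13, a G protein gamma subunit, by 1.32, while the other 9 mature markers were not called. Krt5 of horizontal basal cells was higher by 1.01, Sox9 by 0.74, and Foxj1 and Dnah5 of ciliated cells by 1.01 and 0.84, and the immune genes Ptprc and Lyz2 had lower levels, with −1.69 and −1.40. Other markers of the same lists lay on the other side of 0 and were not called, with log2 fold changes of −0.61 for Icam1 (horizontal basal), −0.33 for Muc5b (gland), −0.16 for Dnah11 and −0.20 for Ccdc39 (ciliated) and 0.79 for Cd68 (immune). Of the 26 genes of OR choice and signalling, Lhx2, Emx2 and Atf5 were called higher by 0.84, 0.69 and 0.61, with Gng13, and 0 were called lower. Over the whole list 14 of the 26 lay above 0, with a median of 0.04. At an edgeR adjusted p under 0.05 but under the fold limit, Ebf3 (0.40), Trim28 (0.30), Ebf1 (0.28), Ldb1 (0.25) and Rtp1 (0.20) were higher. Lbr (−0.46), Ric8b (−0.33), Reep1 (−0.30), Cbx5 (−0.28) and Ano2 (−0.19) were lower at that level, also under the fold limit. The summed level of the immature OSN markers was 2962 to 3005 CPM in number 1 and 2083 to 2670 in the others, and that of the mature OSN markers 7123 to 7635 and 7030 to 8114. The part of these differences in the member values was not tested.

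The sequence before the coding start was read for the members in the RefSeq table of the same build. It held a window of 250 bases before and 50 bases after the gene start for 44 members. In 43 of these the window's start is an ATG, so the table begins these genes at the start codon, and the windows reach only 250 bases upstream of it. In GENCODE the farthest transcript start lay at the start codon for Olfr773, 496 bases upstream for Olfr763 and farther for the others. TAATNA, the core bound by LIM-homeodomain factors such as Lhx2, was found on either strand in 29 of 44 windows (65.9%), the same share as in other Olfr windows (65.9%) and above all windows in the table (26.5%). CCCNNGGG, the core of the Ebf site, was found in 0 of 44, beside 3.2% of other Olfr windows and 13.7% of all. TATAAA was found in 24 of 44 (54.5%), beside 40.4% and 13.6%. An ATG stood at the start of 71.1% of the other Olfr windows and 5.8% of all windows, so these shares compare windows of unlike position. For the members they are matches of letters in windows set by the start codon, and no window is printed for that reason.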

How the data were processed

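Raw counts of reads for each gene symbol were deposited, which the authors made with Trimmomatic 0.36, HISAT2 2.1.0 (mm10) and featureCounts of Subread 1.6.2 per the submitters' notes, and a second table, a signal of normalized counts, in which the authors divided each raw count by a DESeq2 (1.20.0) size factor. The ratio of the deposited tables was constant within each library (0.806 to 1.28). Which annotation was counted, whether strand was used and how multi-mapping reads were handled are not given in the sources used here.

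Differences were tested on the raw counts by edgeR 4.0.16's quasi-likelihood test (R 4.3.3, legacy estimate, TMM, genes with at least 10 counts in total, all 9 libraries in 1 fit, no covariate, two-sided), with Benjamini-Hochberg adjustment over all 19775 genes and the threshold of adjusted p under 0.05 and fold change over 1.5. The biological coefficient of variation was 23.3%. The fit was tested on simulated data. CPM used TMM library sizes, and correlations used log2(CPM + 0.1). Totals limit precision, and the read counts are without molecular identifiers. p-values measure the spread between libraries of littermates whose number is not explained by the labels.

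The symbol rule reads no measured value. The choice of this cluster, of the gene lists and of the split by replicate number was made with earlier results of these data known. Members named are those of highest (8) and lowest (4) WT level per length, of smallest p in homo against WT (6), het against WT (4), homo against het (4) and number 1 against numbers 2 and 3 (6), those called or not tested, and the first and last along the chromosome. The part of the rule on protein identity could not be applied and coding sequences were compared instead, and the pairs, the alanine members, Olfr772, Olfr767 and Olfr826 were named after their values were seen. Deviations from group means of same-numbered libraries correlated at 0.682, 0.457 and 0.586 between WT and het and at 0.807, 0.36 and 0.195 between het and homo, all above 0.1, the level set for taking the numbers as pairs of these groups. Some libraries with different numbers correlated more, het 2 with homo 3 at 0.583 and het 3 with homo 2 at 0.527. The SEs and p-values given for members in het against WT and homo against het come from the fit with genotype alone. They do not use that pairing. Alternatives were other scalings, filters, tools (DESeq2 1.42.0, limma 3.58.1 voom), a replicate block, a term for number 1, fits of 2 genotypes and leaving out each library. A marker gene and a sequence stretch are not reported here.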

Additional observations from a re-analysis of the deposited data

How the results depend on the processing

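No member was called in a genotype comparison under any of the alternatives run, among them the replicate block (0 members in homo against WT, het against WT and homo against het) and a term for number 1. The lowest adjusted p of a member over them was 0.599 for homo against WT and 0.877 for het against WT. Same-numbered libraries of WT and homo correlated at 0.532, 0.32 and −0.085, so the number was not taken to pair these groups, and the block changed no call of a member. Over all genes it moved the calls from 4 to 3 in homo against WT and from 1 to 3 in homo against het. Relative to the other OR genes, members above 0 in homo against WT were 26 in place of 46, and calls for number 1 were 2 in place of 10. On that scaling the log2 fold change of homo against WT changed sign for Olfr763 (−0.044), Olfr777 (−0.069), Olfr788 (−0.16), Olfr808 (−0.036), Olfr810 (−0.15), Olfr811 (−0.19), Olfr812 (−0.0090), Olfr814 (−0.035), Olfr820 (−0.016), Olfr821 (−0.037) and Olfr824 (−0.064), and with plain library totals it did for Olfr791 (0.015). Leaving out 1 library at a time gave between 3 and 10 calls for number 1, and a sign that changed for Olfr763 (−0.043 to 0.36), Olfr777 (−0.017 to 0.22), Olfr788 (−0.10 to 0.18), Olfr791 (−0.11 to 0.094), Olfr803 (−0.031 to 0.74), Olfr808 (−0.033 to 0.45), Olfr810 (−0.092 to 0.25), Olfr811 (−0.25 to 0.26), Olfr814 (−0.064 to 0.60), Olfr820 (−0.013 to 0.48), Olfr823 (−0.39 to 0.095), Olfr824 (−0.22 to 0.79) and Olfr825 (−0.081 to 0.50). With 1 library left out, the median log2 fold change of the members ran from 0.10 to 0.35 in homo against WT, from 0.011 (without het replicate 3) to 0.26 in het against WT, and from −0.053 (without het replicate 1) to 0.17 in homo against het, members above 0 in homo against WT from 33 to 48, and the summed level from 106.7% to 125.5% of WT in homo and from 102.3% to 118.3% in het. Relative to the other OR genes these medians were −0.0090, 0.042 and −0.031. The cause of these changes was not tested. Counts of 126 to 3231 per tested member, with SEs of 0.17 to 0.54, limit what could be detected. Those SEs are from the fit without a term for the number.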
